A study of Mus musculus with 24 samples.

Results

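The genes described here encode the calcium-handling machinery of the sarcoplasmic reticulum, 10 genes of the 18819 tested: Ryr2, Atp2a2, Pln, Casq2, Slc8a1, Cacna1c, Jph2, Trdn, Hrc and Asph. Each was taken from array rows that named it as their single gene, and where several rows did so, the row with the highest mean over the 24 arrays stood for the gene. The choice used no difference between groups. All 10 genes were measured, and their mean signals over all hearts lay at 8.78 or above on the log2 scale, against a 30th percentile of 3.55 over the genes tested, so none was near the lower end of the arrays.

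With every heartbeat a small calcium current through the L-type channel of the surface membrane opens ryanodine receptors on the sarcoplasmic reticulum, and the calcium they release drives contraction. The calcium is then pumped back into the reticulum by SERCA2, held there by calsequestrin and related lumenal proteins, or carried out of the cell by the sodium-calcium exchanger. In the newborn heart the reticulum and the transverse tubules are immature, and contraction depends more on calcium crossing the surface membrane than it does in the adult.

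Ventricle RNA of mice lacking the executioner caspases 3 and 7 was compared with that of wild type mice to find which transcripts depend on these proteases, in newborn hearts and in young hearts. There were 6 WT and 6 KO hearts at each age, 4 groups in all, given by the annotation as strain C57/Bl6, with ages of postnatal day 1 to 2 and day 30 (the Methods give day 0 to 1 and day 30 to 35, and 3 males and 3 females per group, with no sex stated for each sample). KO mice carried a caspase-7 deletion in every cell (caspase-7 -/-) and floxed caspase-3 alleles (caspase-3 lox/lox), which were removed by Cre recombinase under a basal promoter and cardiac enhancer of Nkx2.5 (Nkx2.5::Cre). Caspase-3 was therefore deleted in myocardium and not in cells outside the Nkx2.5 lineage such as cardiac fibroblasts, and the study describes caspase-3 protein remaining in newborn KO hearts. Hearts with Cre alone were not on the arrays analysed here, and transcripts of the 2 targeted genes were not among those analysed, so that genotype rests on the annotation. In separate hearts the study checked key genes and reports no effect of Cre on their expression.

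Values were log2 signals of whole-transcript Affymetrix arrays. The authors had computed them with RMA, a procedure that removes background, brings the arrays to a common distribution and combines the probes of each row, here called a probe set. A difference of 1 on this scale is a factor of 2, and signals are compared between hearts. Signals of different genes are not on a common scale, and where 1 is subtracted from another within a heart, the shift between groups is read and not the level. Array medians lay between 4.24 and 4.50, an array's mean correlation with its group between 0.985 and 0.993, and 0 pairs of arrays held identical values. Of 7 listed ventricular myocyte markers 7 were measured, with averages of 11.82 to 11.85 in newborn and 11.35 to 11.39 in young groups. The 8 skeletal muscle markers averaged 3.74 to 4.03, with 1 newborn KO heart at 5.24. Since signals of different genes are not on a common scale, these averages do not tell ventricle from atrium. In the KO hearts of the young age 7 of 8 atrial myocyte markers, 6 of 6 smooth muscle markers, 7 of 7 fibroblast markers, 6 of 6 macrophage markers and 4 of 6 endothelial markers lay above WT, and 0 of these were called. The atrial list averaged 6.48 ± 1.34 (SD, n = 6; 5.46 to 8.67) in young WT and 8.19 ± 1.36 (SD, n = 6; 5.82 to 9.51) in young KO hearts. With age in WT hearts 4 of 8 atrial markers fell (list median -1.67) and 1 rose, and 5 of 6 endothelial markers fell and 1 rose. In the same hearts 5 of 7 fibroblast and 1 of 6 smooth muscle markers fell, and 6 of 6 macrophage markers rose. Of 7 ventricular markers 3 rose and 2 fell. Among all genes 19.2% were called higher and 27.9% lower. In KO hearts 3 of 7 fibroblast markers fell and 1 rose, and 1 of 8 atrial markers fell and 2 rose. There 2 of 6 endothelial and 2 of 8 skeletal muscle markers fell, and 4 of 6 smooth muscle and 6 of 6 macrophage markers rose. Of 7 ventricular markers 2 rose and 2 fell, beside 34.0% of all genes higher and 25.0% lower. The part of these markers in the age differences below was not tested. In whole ventricle tissue, fewer cells of a type and less RNA per cell cannot be told apart. Whether the 6 hearts of a group came from separate litters is not stated.

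Promoter windows of the 3 genes with the largest rises from newborn to young hearts and of the 1 gene that fell are shown to give the sequence at their starts. They are RefSeq windows of build GRCm38.p6, 250 bases before to 50 bases after the start, written 5′ to 3′ on the gene's strand. The window of Hrc is chr7:45335019-45335318 (+), that of Ryr2 chr13:12106896-12107195 (-), that of Jph2 chr2:163397944-163398243 (-) and that of Slc8a1 chr17:81738338-81738637 (-). Capitals mark every match on either strand to GATAA (reverse TTATC), the core bound by GATA factors, to TATAAA (reverse TTTATA) or to GGGCGG (reverse CCGCCC), the core of an Sp1 site.
Hrc: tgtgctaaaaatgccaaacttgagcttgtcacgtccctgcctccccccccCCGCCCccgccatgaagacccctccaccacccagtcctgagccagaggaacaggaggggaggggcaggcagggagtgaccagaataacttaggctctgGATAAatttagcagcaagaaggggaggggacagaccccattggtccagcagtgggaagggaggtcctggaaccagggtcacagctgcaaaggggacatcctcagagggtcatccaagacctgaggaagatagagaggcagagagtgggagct
Ryr2: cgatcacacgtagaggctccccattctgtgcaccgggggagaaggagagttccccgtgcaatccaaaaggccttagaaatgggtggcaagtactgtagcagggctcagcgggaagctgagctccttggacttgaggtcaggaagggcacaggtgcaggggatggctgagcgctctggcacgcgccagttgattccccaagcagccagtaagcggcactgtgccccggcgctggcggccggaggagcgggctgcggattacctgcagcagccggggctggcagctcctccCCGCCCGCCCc
Jph2: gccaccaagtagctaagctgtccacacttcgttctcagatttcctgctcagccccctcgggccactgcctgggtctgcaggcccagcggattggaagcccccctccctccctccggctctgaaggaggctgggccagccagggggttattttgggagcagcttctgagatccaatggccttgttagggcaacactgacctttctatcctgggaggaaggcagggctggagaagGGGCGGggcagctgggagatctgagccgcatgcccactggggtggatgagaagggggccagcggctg
Slc8a1: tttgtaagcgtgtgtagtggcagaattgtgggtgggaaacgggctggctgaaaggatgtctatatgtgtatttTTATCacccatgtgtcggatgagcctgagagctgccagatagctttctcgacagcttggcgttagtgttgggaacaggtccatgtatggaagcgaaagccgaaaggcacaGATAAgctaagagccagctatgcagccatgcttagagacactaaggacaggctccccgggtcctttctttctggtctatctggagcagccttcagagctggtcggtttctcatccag

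Such windows were found for 7 of the 10 genes, 10 windows in all, since Jph2 had 2 and Cacna1c 3 annotated starts. GATAA was present in 3 of the 10 windows (Hrc, Pln and Slc8a1), against 25.4% of all 32851 windows of this length. GGGCGG was present in 5 windows, of Hrc, Ryr2, Jph2 and Cacna1c, against 35.7%, and TATAAA in 1, of Pln, against 13.6%. The E-box CANNTG was present in 10 of 10, against 72.3%. The MEF2 box and the CArG box, the motif bound by serum response factor, had no match in the 10 windows, against 0.557% and 1.63% of all windows. These matches are letters in a window and not evidence of binding. The 2 windows of Jph2 overlap and count the same GGGCGG letters and the same E-box letters again.

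From newborn to young hearts the transcripts of calcium release, uptake and storage rose and that of the exchanger fell, in both genotypes. The calls of the uptake genes Atp2a2 and Pln depended in part on the scaling of the arrays, as given below. In WT hearts 8 of the 10 genes were higher at day 30 by limma's adjusted p, where 19.2% of all genes were called higher, and 1, Slc8a1, was lower, where 27.9% were called lower. In KO hearts again 8 were higher, against 34.0% of all genes, and 1 was lower, against 25.0%. Cacna1c was the gene called in neither genotype. The median log2 difference of the 10 genes was 0.26 in WT and 0.28 in KO hearts, and that of all genes was 0.0024 and 0.098. In 8 of the 10 genes the 6 young hearts lay wholly to 1 side of the 6 newborn hearts in WT, as for 29.7% of all genes, and in 8 of the 10 in KO, as for 31.0%. After a new quantile normalization of the deposited values, 6 of the 10 genes were called higher in WT hearts, beside 4279 of 18819 genes. In KO hearts 7 were called higher, beside 4458 of 18819.

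**Figure D1:**
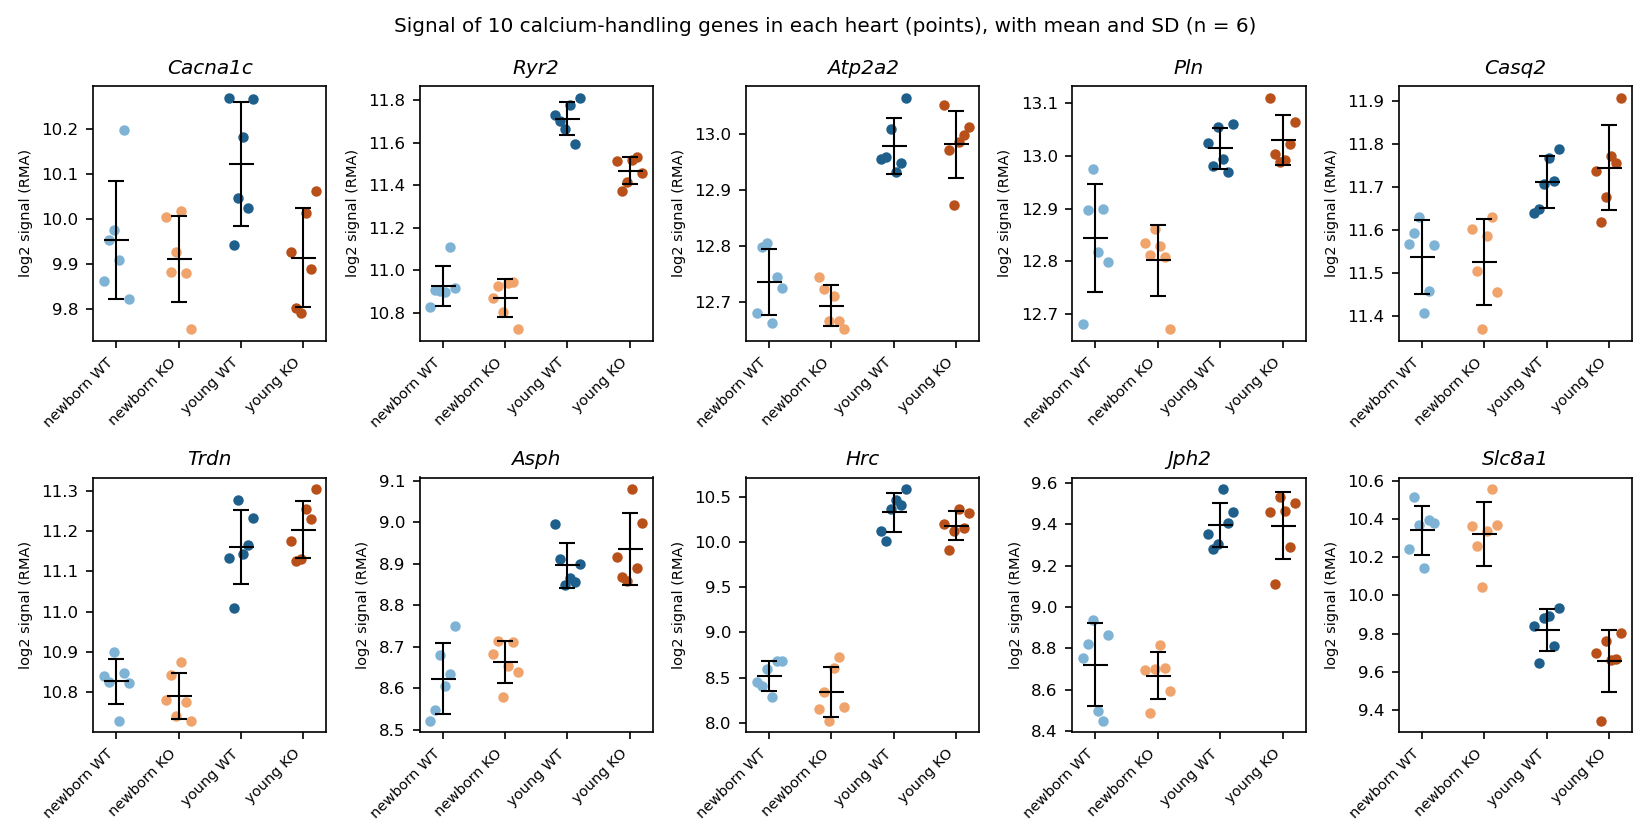
Log2 signal (vertical axes, a separate range for each gene) of the 10 calcium-handling genes in each of 24 hearts, by group (horizontal axes). Points are hearts and bars are the mean and SD of 6. Hrc, Ryr2 and Jph2 stand higher and Slc8a1 lower in both young groups, and the 6 young KO values of Ryr2, 11.37 to 11.53, all lie below the 6 young WT values.

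Calcium first enters through the L-type channel, whose pore subunit is encoded by Cacna1c (chr6:118587240-119197384). In WT hearts its signal ran from 9.82 to 10.20 (median 9.93) in newborn and from 9.94 to 10.27 (median 10.12) in young animals. KO values ran from 9.75 to 10.02 (median 9.90) in newborn and from 9.79 to 10.06 (median 9.91) in young animals. All 4 ranges overlapped. The age difference was 0.17 (standard error 0.073, limma adjusted p = 0.0622) in WT, with a 95% confidence interval of 0.017 to 0.32, and 0.0029 (standard error 0.073, adjusted p = 0.975) in KO hearts.

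The current opens the ryanodine receptor, the release channel encoded by Ryr2 (chr13:11553099-12106945), the gene whose promoter is printed above with overlapping CCGCCC matches near its start. Its signal ran from 10.83 to 11.11 (median 10.90) in newborn WT and from 11.59 to 11.81 (median 11.71) in young WT hearts. Among KO hearts the signal ran from 10.73 to 10.94 (median 10.90) in newborn and from 11.37 to 11.53 (median 11.49) in young animals. Every young heart was above every newborn heart. The rise was 0.79 (standard error 0.057, limma adjusted p = 3.02e-11), or 1.73-fold, in WT and 0.60 (standard error 0.057, adjusted p = 4.22e-09), or 1.52-fold, in KO hearts.

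Junctophilin 2, encoded by Jph2 (chr2:163336242-163398049), tethers the reticulum to the surface membrane so that the L-type channel and the ryanodine receptor face each other. Its signal ran from 8.45 to 8.94 (median 8.79) in newborn WT and from 9.28 to 9.57 (median 9.38) in young WT hearts. For KO hearts it ran from 8.49 to 8.82 (median 8.70) in newborn and from 9.11 to 9.53 (median 9.46) in young animals. The ages did not overlap in either genotype. Jph2 rose by 0.68 (standard error 0.087, limma adjusted p = 4.75e-07), or 1.60-fold, in WT and by 0.73 (standard error 0.087, adjusted p = 1.96e-07) in KO hearts, and its other probe set gave 0.63 and 0.61.

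Inside the reticulum, Hrc (chr7:45335269-45338973) encodes the histidine-rich calcium binding protein, which binds calcium and also interacts with SERCA2 and triadin. It had the largest age difference of the 10 genes. Its signal ran from 8.29 to 8.68 (median 8.53) in newborn WT and from 10.01 to 10.59 (median 10.39) in young WT hearts. The KO signal ran from 8.03 to 8.73 (median 8.26) in newborn and from 9.92 to 10.37 (median 10.17) in young animals. The ages were separated by more than 1 log2 unit in both genotypes. Hrc rose by 1.81 (standard error 0.12, limma adjusted p = 3.45e-12), or 3.51-fold, in WT and by 1.84 (standard error 0.12, adjusted p = 2.84e-12), or 3.58-fold, in KO hearts.

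Casq2 (chr3:102086415-102146514) encodes cardiac calsequestrin, the main calcium store protein of the lumen. Its signal ran from 11.41 to 11.63 (median 11.57) in newborn WT and from 11.64 to 11.79 (median 11.71) in young WT hearts. In KO animals the signal ran from 11.37 to 11.63 (median 11.55) in newborn and from 11.62 to 11.91 (median 11.75) in young animals. The WT ages were separated by a narrow margin and the KO ages overlapped. Casq2 rose by 0.17 (standard error 0.059, limma adjusted p = 0.0173) in WT and by 0.22 (standard error 0.059, adjusted p = 0.00307) in KO hearts. Without the WT and KO newborn hearts numbered 4 the WT difference was 0.15 and was not called (adjusted p = 0.0537).

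Asph (chr4:9449085-9669344) encodes aspartate beta-hydroxylase and, from the same locus, junctin, which anchors calsequestrin at the ryanodine receptor. The array does not separate these products here, because 1 probe set stood for the gene. Its signal ran from 8.52 to 8.75 (median 8.62) in newborn WT and from 8.85 to 9.00 (median 8.88) in young WT hearts. KO hearts ran from 8.58 to 8.71 (median 8.67) in newborn and from 8.86 to 9.08 (median 8.90) in young animals. The ages did not overlap in either genotype. Asph rose by 0.27 (standard error 0.053) in both, with limma adjusted p = 0.000115 in WT and 0.000126 in KO hearts.

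Trdn (chr10:33083483-33476709) encodes triadin, the partner of junctin at the same junction, and was covered by 19 probe sets. By the brightest, the signal ran from 10.73 to 10.90 (median 10.83) in newborn WT and from 11.01 to 11.28 (median 11.15) in young WT hearts. KO animals ran from 10.73 to 10.88 (median 10.78) in newborn and from 11.13 to 11.30 (median 11.20) in young animals. The ages did not overlap in either genotype. Trdn rose by 0.33 (standard error 0.053, limma adjusted p = 8.79e-06) in WT and by 0.41 (standard error 0.053, adjusted p = 4.56e-07) in KO hearts. The brightest probe set gave the smallest rise of the 19 in WT hearts. All 19 were called higher in young WT hearts, by 0.33 to 1.72 with a median of 0.88, and 17 of 19 in young KO hearts, where the 19 differences ran from 0.39 to 1.73 with a median of 0.68. The size of the WT rise was hardly related to signal over the 19 probe sets (Pearson's r = 0.151, a description over rows of 1 gene that share their hearts). Probe sets cover different parts of a transcript, and which splice forms each one reads was not examined.

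**Figure D2:**
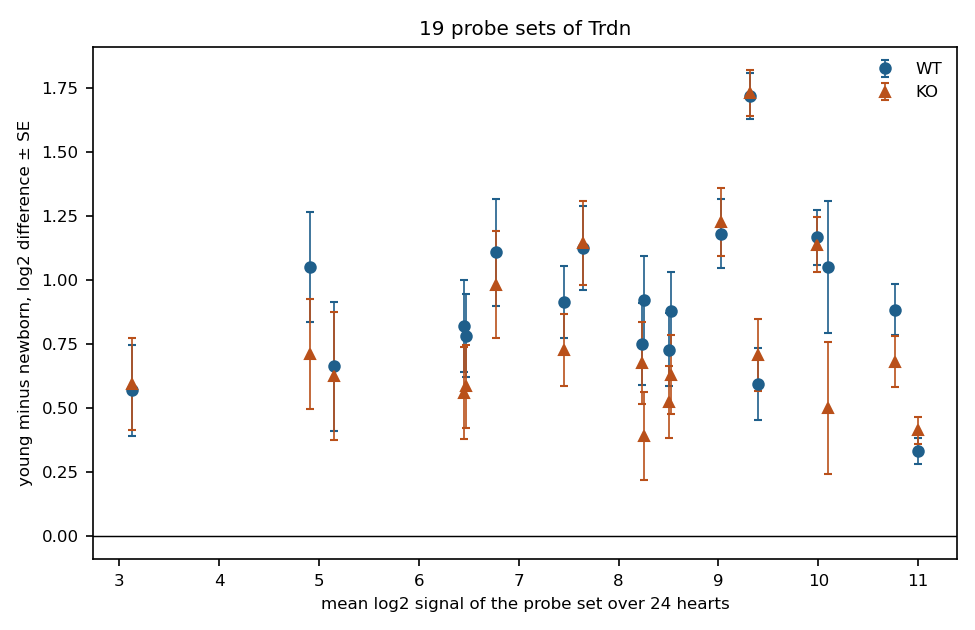
Young minus newborn log2 difference with its standard error (vertical axis) against mean log2 signal over 24 hearts (horizontal axis) for the 19 probe sets of Trdn, in WT (circles) and KO (triangles) hearts. All 19 points lie above 0 in both genotypes, and the brightest probe set, farthest to the right, has the smallest WT difference.

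Uptake into the reticulum rests on SERCA2, encoded by Atp2a2 (chr5:122453513-122502225), and on its inhibitor phospholamban, encoded by Pln (chr10:53337686-53345999). Atp2a2 ran from 12.66 to 12.81 (median 12.73) in newborn WT and from 12.93 to 13.07 (median 12.96) in young WT hearts. The KO hearts ran from 12.65 to 12.74 (median 12.69) in newborn and from 12.87 to 13.05 (median 12.99) in young animals. The ages did not overlap. Atp2a2 rose by 0.24 (standard error 0.046, limma adjusted p = 9.78e-05) in WT and by 0.29 (standard error 0.046, adjusted p = 1.22e-05) in KO hearts.

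Pln ran from 12.68 to 12.97 (median 12.86) in newborn WT and from 12.97 to 13.06 (median 13.01) in young WT hearts. KO signals ran from 12.67 to 12.86 (median 12.82) in newborn and from 12.99 to 13.11 (median 13.01) in young animals. The WT ages overlapped at the highest newborn value and the KO ages did not overlap. Pln rose by 0.17 (standard error 0.052, limma adjusted p = 0.00851) in WT and by 0.23 (standard error 0.052, adjusted p = 0.000687) in KO hearts. Both genes lay near the highest value of the arrays, 13.51. After a new quantile normalization of the deposited values the WT difference was 0.093 for Atp2a2 (adjusted p = 0.0828) and 0.031 for Pln (adjusted p = 0.657), and that of Pln in KO hearts was 0.078 (adjusted p = 0.211), so these 3 calls depend on the scaling.

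The signals of a pump and its inhibitor can also be set against each other within a heart, which shows only whether the 2 changed unequally. The Pln signal minus the Atp2a2 signal averaged 0.11 ± 0.064 (SD, n = 6) in WT and 0.11 ± 0.059 in KO newborn hearts, and 0.037 ± 0.029 in WT and 0.049 ± 0.038 in KO young hearts. The groups overlapped, and the within-heart difference shifted by -0.073 with age in WT and by -0.061 in KO hearts, which is a description with no test.

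Slc8a1 (chr17:81373105-81738387) encodes the sodium-calcium exchanger, which moves calcium out of the cell across the surface membrane. It was the gene that fell. Its signal ran from 10.14 to 10.52 (median 10.38) in newborn WT and from 9.64 to 9.93 (median 9.86) in young WT hearts. Signals of KO hearts ran from 10.05 to 10.56 (median 10.35) in newborn and from 9.34 to 9.81 (median 9.68) in young animals. Every young heart was below every newborn heart. The age difference was -0.52 (standard error 0.085, limma adjusted p = 1.26e-05), or 0.697-fold, in WT and -0.67 (standard error 0.085, adjusted p = 4.32e-07), or 0.630-fold, in KO hearts. Its other, dimmer probe set fell further, with log2 differences of -1.04 in WT and -1.48 in KO hearts. Within each heart, the Slc8a1 signal minus the Atp2a2 signal averaged -2.39 (WT) and -2.37 (KO) at the newborn age and -3.16 (WT) and -3.33 (KO) at the young age. The lowest newborn value, -2.62, was above the highest young value, -3.04.

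**Figure D3:**
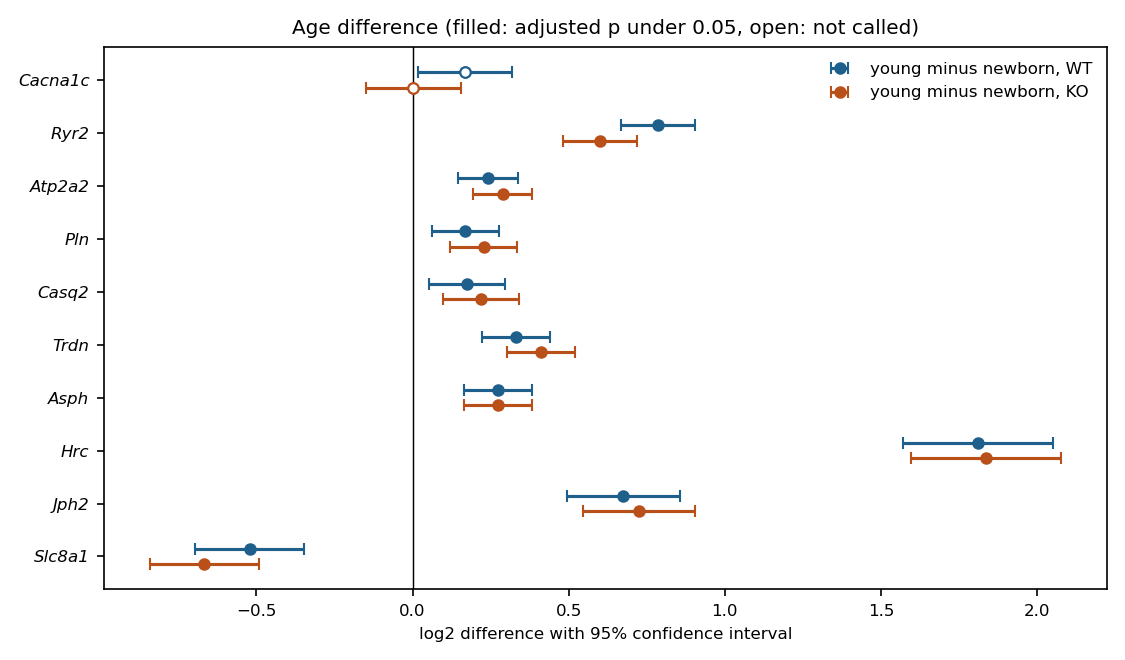
Young minus newborn log2 difference with its 95% confidence interval (horizontal axis) for the 10 genes (vertical axis), in WT and KO hearts. Filled points passed an adjusted p under 0.05 in limma and open points did not. Hrc lies at 1.81 and 1.84, Slc8a1 lies to the left of 0, and the interval of Cacna1c in KO hearts spans 0.

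In newborn hearts loss of the caspases was accompanied by no called difference in any of the 10 genes. By limma's adjusted p 0 of 10 were called, where 0% of all genes were, and 0 passed an unadjusted p under 0.05, against 1707 of the 18819 genes. The differences (KO minus WT) ran from -0.18 for Hrc to 0.040 for Asph, 9 of them below 0, with a median of -0.042 beside -0.049 over all genes. Hrc had the smallest adjusted p, 0.661. The groups overlapped in all 10 genes, where 0.489% of all genes did not overlap. The 95% confidence intervals say how large a difference could have been missed. For Ryr2 the interval was -0.18 to 0.060, for Atp2a2 -0.14 to 0.053 and for Pln -0.15 to 0.064. The widest, of Hrc, was -0.42 to 0.063. Without the newborn hearts numbered 4 of both genotypes, 117 of all genes were called higher and 365 lower, and 0 of the 10 calcium-handling genes. These 2 hearts were picked in earlier results of these data by their own genotype signal, so the larger counts without them are a description and no evidence of a difference.

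In young hearts Ryr2 was lower in KO than in WT animals, and it was 1 of the 10 genes called, where 1.02% of all genes were called. The 6 young WT values ran from 11.59 to 11.81 with a median of 11.71, and the 6 young KO values from 11.37 to 11.53 with a median of 11.49. The lowest WT heart was above the highest KO heart, as for 0.824% of all genes without overlap in this comparison, and Ryr2 was the 1 gene of the 10 for which this held. The difference was -0.24 (standard error 0.057, limma adjusted p = 0.0365), with a 95% confidence interval of -0.36 to -0.13 and a fold of 0.845. Group means were 11.71 ± 0.079 for WT and 11.47 ± 0.065 for KO hearts (SD, n = 6 each).

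The size of the Ryr2 difference was stable and its call was not. Over 35 alternative settings it ran from -0.30 to -0.22 and its adjusted p from 0.0135 to 0.43, with a call in 24. The call was lost when any of 6 hearts was left out, young WT 1 (adjusted p = 0.0749), 3 (0.0517), 4 (0.0748) or 6 (0.0901), or young KO 2 (0.093) or 6 (0.0564). It was also lost in a fit of only the 12 young hearts (adjusted p = 0.182). With the mean of the atrial markers in that fit the difference was -0.23 (adjusted p = 0.43). The part of the smooth muscle and fibroblast markers, which averaged 7.44 and 8.31 in young WT and 8.56 and 8.89 in young KO hearts, was not tested.

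The young and newborn genotype effects on Ryr2, -0.24 and -0.058, differed by -0.19 (standard error 0.081, unadjusted p = 0.0301, limma adjusted p = 0.349). Thus a difference between the ages was not established. In this test of the difference 0 of the 10 genes were called, where 0.0106% of all genes were, and the median was 0.037 beside 0.084 over all genes. The age comparisons and the genotype comparisons share hearts, so the smaller rise of Ryr2 in KO hearts and its lower young KO signal are not separate observations.

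Ryr2 can also be read against calsequestrin within each heart. The Ryr2 signal minus the Casq2 signal ran from -0.12 to 0.088 (median 0.017) in young WT and from -0.45 to -0.22 (median -0.25) in young KO hearts. These 2 groups did not overlap. In newborn hearts it averaged -0.61 ± 0.15 for the WT and -0.66 ± 0.073 for the KO group (SD, n = 6 each), which overlapped. Since Ryr2 had been called before this difference was formed, it is a description with no test.

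**Figure D4:**
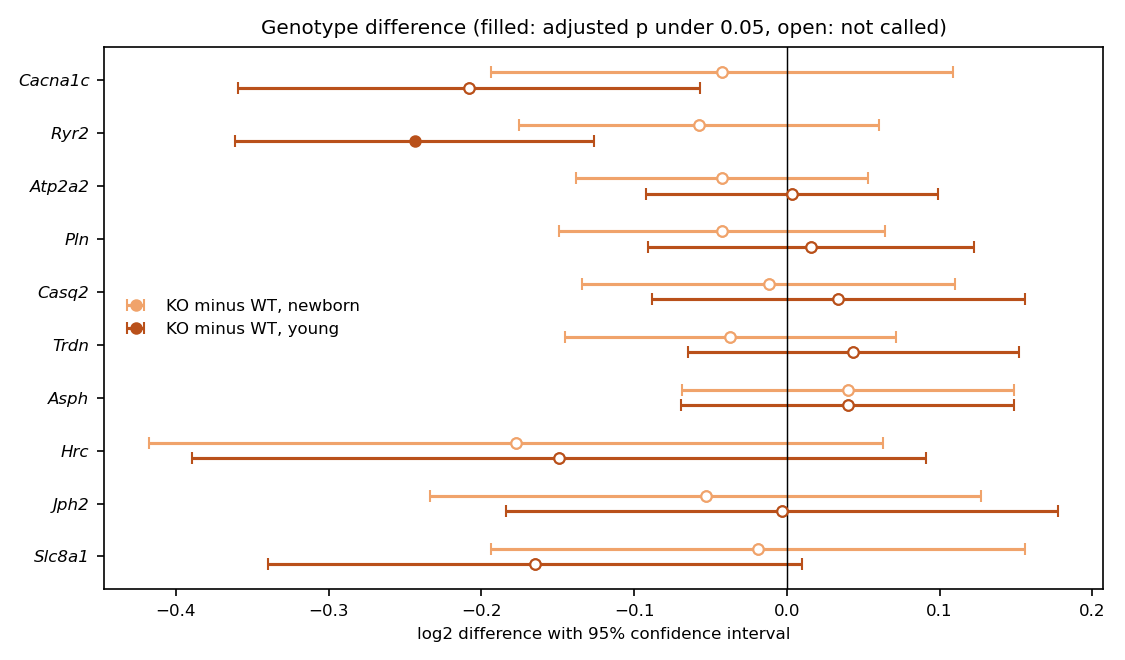
KO minus WT log2 difference with its 95% confidence interval (horizontal axis) for the 10 genes (vertical axis), in newborn and young hearts. The filled point is the 1 difference with an adjusted p under 0.05 in limma, Ryr2 in young hearts at -0.24, and the interval of Cacna1c in young hearts also lies below 0 before adjustment.

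By the brightest probe sets, Cacna1c had the next largest young difference of the other 9 genes, -0.21 (standard error 0.073). Its unadjusted p was 0.00906 and its limma adjusted p 0.163, and it was called in 0 of 35 alternatives. The 6 WT hearts ran from 9.94 to 10.27 and the 6 KO hearts from 9.79 to 10.06, with overlap. For Slc8a1 the difference was -0.17 (standard error 0.085, adjusted p = 0.364) and for Hrc -0.15 (standard error 0.12, adjusted p = 0.587). The other, dimmer probe set of Slc8a1 gave -0.36 (standard error 0.12, limma adjusted p = 0.2 over all probe sets). That is larger than the differences of Cacna1c and Ryr2, and it was not called. Atp2a2, Pln, Casq2, Trdn, Asph and Jph2 differed by -0.0031 to 0.044 by their brightest probe sets. The other probe set of Jph2 gave -0.11 (limma adjusted p = 0.672 over all probe sets). The 95% interval was -0.092 to 0.099 for Atp2a2, -0.091 to 0.12 for Pln and -0.088 to 0.16 for Casq2. On the deposited scaling, larger changes in the transcripts of the pump, its inhibitor or the store protein lie outside these intervals. Median centring of the arrays changed the sign of these differences, as given below, and protein was not measured here. The median over the 10 genes was 0.00021, beside 0.033 over all genes. Of the 19 probe sets of Trdn 15 were below 0, from -0.54 to 0.13 over the 19, and 0 were called.

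Among the hearts of a group the 10 genes tended to vary together. With each heart's deviation from its group mean taken over 24 hearts, 44 of 45 gene pairs had a Pearson's r above 0, with a median of 0.382. The highest were Slc8a1 with Casq2 (r = 0.716), Cacna1c with Ryr2 (r = 0.699) and Pln with Atp2a2 (r = 0.693), and the lowest was Jph2 with Ryr2 (r = -0.0126). These hearts share their arrays and normalization, and the values are descriptions. The same share over pairs of all genes was not computed, so it is not read as a trait of these 10. Each most alike gene given next is the highest of 18818 values, so its r is high partly by that choice. All of these r values, 0.777 to 0.925, exceed the highest within the 10 genes. Over 18818 genes compared in the same 24 hearts, the gene most alike was Tln2, which encodes talin 2, for Ryr2 (r = 0.807), and Asb15 for Cacna1c (r = 0.786). It was Ctnna1, which encodes alpha-catenin, for Atp2a2 (r = 0.839) and Tmem121b for Pln (r = 0.784). It was Hif1an for Casq2 (r = 0.861), Utp3 for Trdn (r = 0.839) and Zfp280c for Asph (r = 0.777). It was Lactb2 for Hrc (r = 0.925), Mrpl19, a mitochondrial ribosomal protein, for Jph2 (r = 0.872) and Timm17a, a subunit of the mitochondrial import channel, for Slc8a1 (r = 0.819).

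Around these genes a list of 97 other calcium-handling genes in 9 roles was examined, of which 81 were measured. With age, 30 of the 81 (37%) rose and 20 (24.7%) fell in WT hearts, where 19.2% of all genes rose and 27.9% fell. In KO hearts 34 (42%) rose and 13 (16%) fell, where 34.0% of all genes rose and 25.0% fell. The WT falls and the KO rises were thus near the shares of all genes. The median age difference was 0.13 in WT and 0.12 in KO hearts, beside 0.0024 and 0.098 over all genes. Counts by role rest on few genes, are to be read against these shares and are descriptions. In the test of whether the genotype effect differed between the ages, 0 of the 81 genes were called, beside 0.0106% of all genes. A gene called with age in only WT or only KO hearts is therefore not shown to differ between them. In this paragraph and the following ones values are log2 differences between young and newborn hearts, WT first, unless a level is named. None of the genes called with age changed sign after median centring of the arrays or a new quantile normalization, which kept 46 and 47 of the 50 WT calls and 45 and 42 of the 47 KO calls.

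**Figure D5:**
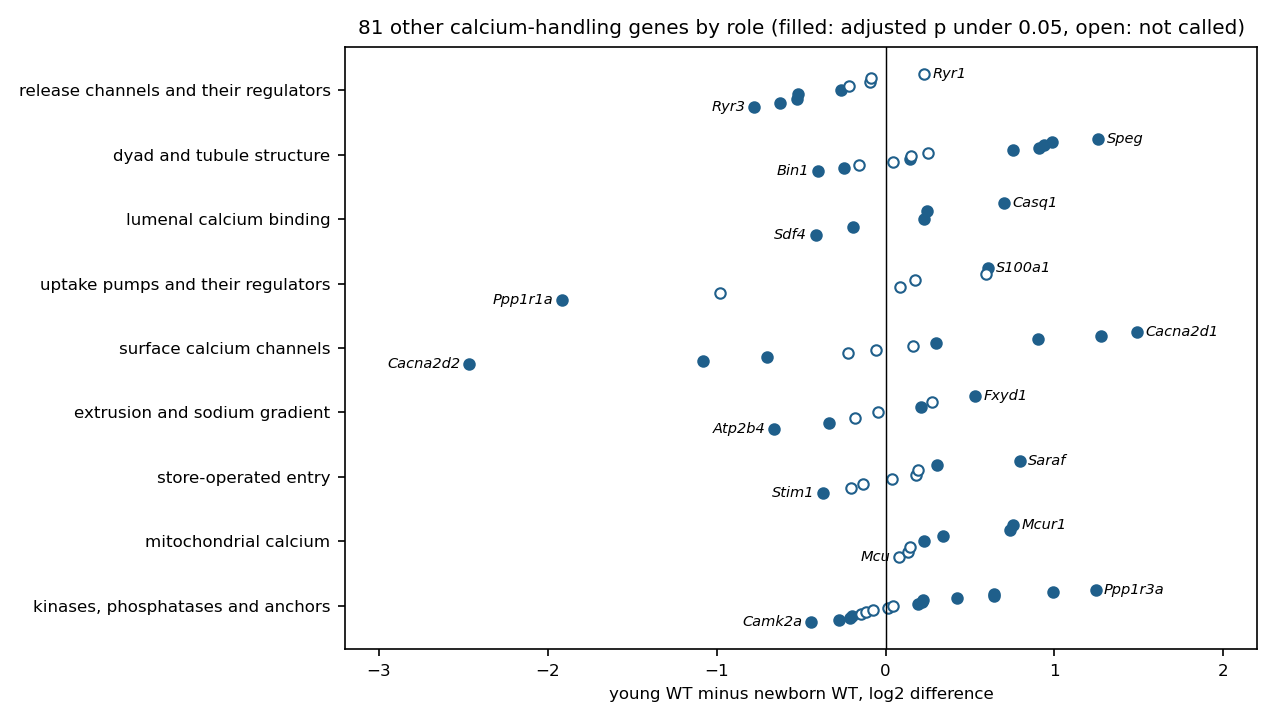
Young WT minus newborn WT log2 difference (horizontal axis) of 81 other calcium-handling genes, by role (vertical axis). Filled points passed an adjusted p under 0.05 in limma, open points did not, and the lowest and highest gene of each role are named. Cacna2d2 lies at -2.47 and Cacna2d1 at 1.49, and 0 genes of the release channel role were called higher.

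Of 9 measured release channel genes and regulators 0 rose and 5 fell in each genotype, where 27.9% (WT) and 25.0% (KO) of all genes fell. Ryr3, another ryanodine receptor, had newborn means of 4.26 and 4.39 and young means of 3.48 and 3.59, near the 30th percentile of 3.55, and fell (-0.78 and -0.81, limma adjusted p = 0.000171 and 0.000127). Ryr1, the skeletal muscle form, was not called and lay near that percentile in all groups (means 3.47 to 3.70). The inositol trisphosphate receptor gene Itpr2 fell (-0.53 and -0.59). Fkbp1b, which encodes the FKBP12.6 protein bound to the cardiac ryanodine receptor, fell (-0.63 and -0.40).

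Of 12 genes of dyad and tubule structure 6 rose and 2 fell in WT, where 19.2% of all genes rose and 27.9% fell, and 7 rose and 0 fell in KO hearts, where 34.0% rose and 25.0% fell. Speg, a kinase of the triad, rose by 1.26 and by 0.87, and Mtm1, the lipid phosphatase myotubularin, by 0.99 and by 1.02. The junctophilin Jph1 rose by 0.94 and by 0.51. Jph3, which counts among the KO rises, had means of 3.13 to 3.46 in the 4 groups, all under the 30th percentile of 3.55, so no change is read from it, and Jph4, at 3.50 to 3.80, was not called. Bin1, which shapes transverse tubules, and the dim Sypl2 fell in WT hearts (-0.40 and -0.24), with -0.043 and -0.066 in KO hearts.

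Of 5 lumenal calcium-binding genes 3 rose in each genotype, and 2 fell in WT and 0 in KO hearts. The shares of all genes were 19.2% higher and 27.9% lower in WT, and 34.0% higher and 25.0% lower in KO hearts. Casq1, the skeletal muscle calsequestrin, rose by 0.70 and by 0.72, although its ages overlapped. The chaperone Hsp90b1 rose by 0.25 and by 0.28. Sdf4 and Calu fell in WT hearts (-0.41 and -0.19), with -0.12 and 0.077 in KO hearts. Of 6 genes of the uptake pumps and their regulators S100a1, a calcium-binding regulator of SERCA2 and the ryanodine receptor, rose by 0.60 and by 0.74. Ppp1r1a, the protein phosphatase inhibitor 1, fell (-1.92 and -1.42). The pumps Atp2a1 (0.60 and 0.32) and Atp2a3 (0.087 and 0.11) were not called.

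Surface calcium channels moved in both directions. Of 10 measured, 4 rose and 3 fell in WT, and 4 rose and 2 fell in KO hearts. Cacna2d3 counts among the rises in both genotypes. Its WT means, 3.22 in newborn and 3.52 in young hearts, were both under the 30th percentile of 3.55, so no WT change is read from it. Its KO means were 3.22 and 3.80, the first also under that percentile. The falls in both genotypes and the KO rises were near the shares of all genes, 27.9% and 25.0% lower and 34.0% higher. The auxiliary subunit Cacna2d1 rose by 1.49 and by 1.46, from group means of 8.72 and 8.70 to 10.21 and 10.16. Cacna2d2, another subunit of this family, fell (-2.47 and -2.34), from 7.52 and 7.79 to 5.05 and 5.45. The skeletal L-type pore gene Cacna1s rose by 1.27 and by 0.91, from low newborn means of 3.81 and 3.87. The T-type channel gene Cacna1g fell (-0.70 and -0.69), and Cacna1h fell in WT (-1.08), with -0.50 in KO hearts (adjusted p = 0.0778). Among extrusion genes Fxyd1, which encodes phospholemman, rose by 0.53 and by 0.49, and the surface pump gene Atp2b4 fell (-0.66 and -0.30). Slc8a3, which counts among the WT falls, had means of 3.21 to 3.54 in the 4 groups, all under the 30th percentile of 3.55, so no change is read from it, and Slc8a2, at 3.80 to 4.02, was not called.

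Of 7 mitochondrial calcium genes 4 rose in WT, where 19.2% of all genes rose, and 6 in KO hearts, where 34.0% rose, and 0 fell, led by Mcur1 (0.76 and 0.77) and Letm1 (0.74 and 0.78). Of 8 genes of store-operated entry 2 rose and 1 fell in each genotype. Of all genes 19.2% rose and 27.9% fell in WT, and 34.0% rose and 25.0% fell in KO hearts. Saraf (0.79 and 0.58) and Orai3 (0.31 and 0.23) were higher and Stim1 (-0.37 and -0.33) was lower. Of 17 kinases, phosphatases and anchors 8 rose and 4 fell in WT, beside 19.2% and 27.9% of all genes, and 9 rose and 3 fell in KO hearts, beside 34.0% and 25.0%. Ppp1r3a, which targets protein phosphatase 1 to glycogen and the reticulum, rose by 1.24 and by 1.15. Akap6, the anchor mAKAP, rose by 0.99 and by 0.74. Camk2a fell (-0.44 and -0.35), as did Ppp1ca (-0.28 and -0.17).

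Between genotypes, 0 of the 81 genes were called in newborn hearts, as were 0% of all genes, and 3 of 81 passed an unadjusted p under 0.05, beside 1707 of 18819. In young hearts 2 of 81 (2.47%) were called, beside 1.02% of all genes, both small G proteins that restrain the L-type channel. Rrad ran from 10.28 to 10.61 (median 10.49) in WT and from 9.06 to 10.31 (median 9.92) in KO hearts, a difference of -0.63 (standard error 0.13, limma adjusted p = 0.0148). Gem ran from 5.32 to 6.27 (median 5.83) in WT and from 6.02 to 6.93 (median 6.60) in KO hearts, a difference of 0.82 (standard error 0.19, adjusted p = 0.0393). The ranges overlapped for both genes, in opposite directions. Rrad lost its call in 2 of 35 alternatives, which fitted only the 12 young hearts, and Gem in 15, among them leaving out young KO heart 1, 2, 4, 5 or 6, young WT heart 1, 3, 4, 5 or 6, or newborn KO heart 3. Sln, which encodes the atrial SERCA inhibitor sarcolipin, ran from 2.39 to 5.96 in young WT and from 4.00 to 6.14 in young KO hearts (difference 1.64, standard error 0.54, adjusted p = 0.133), beside the atrial markers given above. Without young WT heart 2 the count was 11 of 81, with Sln at 2.11 (adjusted p = 0.0131). The count over all genes without that heart is not given here, so the larger count is not read as a trait of the list.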

How the data were processed

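Ventricle RNA of 24 mouse hearts was hybridized to Affymetrix arrays. The deposited log2 signals come from the authors' RMA processing, which brings arrays to a common distribution, so that only relative levels can be read. The tools in the submitters' processing notes are R 2.15, oligo 1.22 and limma 3.14. The build and annotation used upstream are not given in the sources used here. Samples were grouped from their annotation, and 0 columns of other series were present. Of 35017 probe sets, 21118 named 1 gene of the platform annotation, 1735 several and 12164 none. Of the 21118, 21085 matched RefSeq GRCm38.p6 by Entrez identifier and 0 symbols changed. The brightest probe set per gene gave 18819 genes.

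One limma model (version 3.58.1, R version 4.3.3) with a mean per group, 20 residual degrees of freedom and no covariates was fitted to all 24 arrays, with Benjamini-Hochberg adjustment over all genes tested and calls at an adjusted p under 0.05. All adjusted p-values are limma's. Sex and batch were not given for each sample, and the number of arrays limits the precision. In simulated data of 18819 genes each genotype comparison recovered 38 of the 50 genes simulated at 1.5-fold and 48 of the 50 at 2-fold, with 14 (newborn) and 1 (young) of 18619 unchanged genes called. Smaller differences, such as the 0.845-fold of Ryr2 in young hearts, were not simulated, so their recovery is not known.

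The genes, lists, tests and alternatives were chosen with earlier results of these data known. Named were the 10 genes, their paralogs, per role and comparison up to 2 called rises and 2 called falls of largest difference, and the most alike gene of each of the 10. Sln and Micu2 were named after their values were seen. Listed genes absent from the genes tested, and promoter windows of Atp2a2, Trdn and Asph, are not analysed here. Alternatives were the 30th percentile as a filter on dim genes, array weights, a variance trend with robust moderation, quantile normalization anew, median centring, a replicate block, averaging a gene's probe sets, testing all probe sets, fitting only the 12 arrays compared, the mean atrial marker signal as a covariate in the 12 young arrays, leaving out both newborn hearts numbered 4, and leaving out each heart. Figures were drawn with matplotlib version 3.10.9 in Python version 3.11.15.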

Additional observations from a re-analysis of the deposited data

Results flagged for a closer look

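In 3 of 40 groups of 6 hearts, over the 10 genes and 4 groups, 1 heart stood far from the others of its group, where chance alone picks out about 1 in 20. The newborn WT heart numbered 5 had the highest Ryr2 signal of its group, 11.11 against 10.92 for the nearest heart, a gap of 0.68 of the group's range. The newborn KO heart numbered 6 had the lowest Pln signal, 12.67 against 12.81, a gap of 0.716 of the range. The young KO heart numbered 2 had the lowest Slc8a1 signal, 9.34 against 9.66, a gap of 0.688 of the range. Leaving out any of these 3 hearts in turn left the age calls of Ryr2, Pln and Slc8a1 in place, while the lower Ryr2 signal of young KO hearts was no longer called without young KO heart 2 (limma adjusted p = 0.093).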

How the results depend on the processing

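Over the alternatives, 632 of the called values of the 10 genes kept their direction and call and 15 lost the call, and none changed sign. Of the uncalled values 980 stayed uncalled with their sign, 5 became called, all of Cacna1c with age in WT hearts, and 68 changed sign. The young count of the 10 genes, 1, was 0 with array weights, the replicate block, all probe sets, only the 12 arrays and the atrial covariate, and 0 to 1 when each heart was left out. The count of the 81 other genes, 2, was 1 with all probe sets, 0 with only the 12 arrays, 0 with the atrial covariate, and 1 to 11 when each heart was left out (11 without young WT 2, 8 without young KO 3). Counts over all genes with 1 heart left out are not given here, so these counts are not read as a trait of the 81 genes. Akap6, at -0.29 in young hearts, was just short of a call in the main fit (limma adjusted p = 0.0537). It was called with the filter on dim genes, median centring, quantile normalization anew and the variance trend. With the replicate block Akap6 and Speg (-0.34) were called and Gem was not. The newborn count of these genes was 2 without both newborn hearts numbered 4 (Gem at 0.79 and Micu2 at -0.32) and 0 to 1 when each heart was left out (Micu2 without newborn WT 4). With the replicate block Ryr2 in young hearts had an adjusted p of 0.0517, and no other call of the 10 genes changed. Whether the numbers pair the hearts was not settled. The correlation of deviations was over 0.1 in 5 of 12 same-numbered pairs (-0.438 to 0.645, the lowest in newborn pair 4 and the highest in young pair 2). Differently numbered hearts were not compared, so these values have nothing to be read against.

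Uncalled differences that changed sign were small. Under median centring they were, in newborn hearts, Casq2 0.012 and Slc8a1 0.0047, in young hearts Atp2a2 -0.051, Pln -0.039, Casq2 -0.021, Trdn -0.011 and Asph -0.015, with age in KO hearts Cacna1c -0.0079, and for the difference of the genotype effects Atp2a2 -0.033, Pln -0.020, Casq2 -0.033, Hrc -0.051 and Jph2 -0.029. After quantile normalization they were Slc8a1 0.0042 in newborn hearts, Atp2a2 -0.015 in young hearts, Cacna1c -0.040 with age in KO hearts and Hrc -0.0034 for the difference of effects. Array weights gave Cacna1c -0.010 with age in KO hearts. The mean of all probe sets gave Trdn 0.039 and Slc8a1 0.031 in newborn hearts, Trdn -0.10 in young hearts and Trdn -0.14 for the difference of effects. Leaving out both newborn hearts numbered 4 gave Asph 0.0014 for the difference of effects, and the atrial covariate gave Atp2a2 -0.011 and Jph2 0.11 in young hearts. Leaving out each heart moved Cacna1c from -0.068 to 0.0066, Casq2 from -0.038 to 0.019 and Slc8a1 from -0.066 to 0.037 in newborn hearts, Atp2a2 from -0.010 to 0.025, Jph2 from -0.031 to 0.053 and Pln from -0.00036 to 0.025 in young hearts, Cacna1c from -0.028 to 0.028 with age in KO hearts, and Asph from -0.029 to 0.020 and Hrc from -0.035 to 0.11 for the difference of effects. The cause of these changes was not tested.

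Among all genes, median centring turned the young split from 126 higher and 66 lower to 84 and 204, and quantile normalization to 129 and 141. In WT hearts with age 40.8% of the calls were higher, 52.5% after median centring. In newborn hearts 0 genes were called, but 7 higher and 24 lower with array weights, and 117 higher and 365 lower without both newborn hearts numbered 4.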
